A study of Rattus norvegicus with 11 samples.

Results

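The miR-29 family was examined in the liver of rats given total parenteral nutrition (TPN) and of Control rats. Its members were all rows of the deposited microRNA table named miR-29a, miR-29b or miR-29c, either arm, and there were 6 of 1331 rows. They are the 3p arms miR-29a-3p, miR-29b-3p and miR-29c-3p and the 5p arms miR-29a-5p, miR-29b-5p and miR-29c-5p. The 5 TPN rats and 6 Control rats were male Sprague-Dawley animals, an outbred laboratory strain, and were 4 weeks old when the experiment began. TPN rats had all nutrients infused into a vein for 7 days. Control rats ate standard chow and had 0.9% saline by the intravenous route for the same 7 days. The microRNA reads of each liver were counted separately, and each rat is named by its group and number.

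A microRNA is cut from a hairpin precursor, and either arm of the hairpin, 5p or 3p, can be kept as the mature strand. Bases 2 to 8 of the mature strand, the seed, choose most of the messenger RNAs that it represses. The 3p arms of miR-29 share a seed and are known for repressing collagens, elastin and other matrix genes. In mouse and human liver they are made in hepatocytes and in stellate cells, the cells that lay down matrix in a scarring liver, and their level in stellate cells is known to drop in fibrosis. Messenger RNA of these targets was not analysed here.

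The mature sequences are shown because the seed defines the family and because the 3p arms are nearly alike in the rest of their bases. All are from RefSeq, build GRCr8, where the names of all 6 rows were found; the seed is in capitals.
rno-miR-29a-3p: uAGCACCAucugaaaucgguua
rno-miR-29b-3p: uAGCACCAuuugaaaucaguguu
rno-miR-29c-3p: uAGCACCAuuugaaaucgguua
rno-miR-29a-5p: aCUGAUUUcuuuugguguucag
rno-miR-29b-5p: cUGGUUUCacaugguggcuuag
rno-miR-29c-5p: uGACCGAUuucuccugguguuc
The 3p arms held the seed AGCACCA, and they were the only 3 of 693 mature rat microRNAs in the sequence table with it. Each 5p arm had a seed of its own. Counted from 1 at the 5′ end, miR-29c-3p differs from miR-29a-3p at 1 of 22 bases (C10U). Over the same 22 bases miR-29b-3p differs from miR-29a-3p at 4 (C10U, G18A, U21G and A22U), and it has 1 base more. How reads of such near-identical sequences were divided is not given in the sources used here, so the split of reads between miR-29a-3p and miR-29c-3p is uncertain. None of the 6 rows had the same values as another row named as a rat microRNA. Rows of predicted microRNAs were not compared. The last bases of miR-29b-3p, AGUGUU, are known in human cells as a signal that brings this microRNA into the nucleus. Searched on the mature strand only, AGUGUU ended 2 of 693 rat microRNAs (0.289%), and the other was miR-92b-5p.

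The 3 mature 3p arms come from 4 hairpins in 2 pairs. Mir29a (chr4:60617955-60618042, minus strand, GRCr8) lies 291 bases from Mir29b1 on chromosome 4. Mir29c (chr13:109099359-109099446, plus strand, GRCr8) lies 447 bases from Mir29b2 on chromosome 13. Both pairs give the same mature miR-29b-3p, while the row miR-29b-5p is the 5p arm of Mir29b2. The hairpins of Mir29a and Mir29c are shown because their arms behaved unlike each other in the reads; the 5p arm, then the 3p arm, is in capitals.
Mir29a: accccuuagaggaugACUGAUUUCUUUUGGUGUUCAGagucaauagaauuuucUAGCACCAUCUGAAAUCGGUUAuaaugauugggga
Mir29c: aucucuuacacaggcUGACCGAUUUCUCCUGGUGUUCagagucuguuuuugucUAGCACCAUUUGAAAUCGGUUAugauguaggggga

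Levels were deposited as CPM, the reads of a row scaled to the depth of its library, and each value was turned back into its number of reads. Libraries held 7552545 to 14788757 reads in TPN rats and 1404858 to 10189899 in Control rats. Control 5, 12 and 19 stood apart, with 1404858 to 3891974 reads and 0.517% to 2.0% of them in rows of predicted microRNAs, against 0.0965% to 0.145% in the other 8 libraries. The hepatocyte markers of the liver (10 rows of 6 microRNAs) summed to 719836 to 785615 CPM in TPN rats and 564751 to 797136 CPM in Control rats. That sum was mostly 1 row, miR-148a-3p, with a mean of 563009 CPM in TPN rats and 477574 CPM in Control rats. The hepatocyte row miR-122-5p varied widely within each group. It had a mean of 137326 ± 92956 CPM (SD) in TPN rats and 157344 ± 141564 CPM (SD) in Control rats. Of 6 cell type lists in all, none had a row that passed limma-trend after adjustment, but no row of the whole table passed. Before adjustment, limma-trend p was under 0.05 for 3 of 3 tested red cell rows, all lower in TPN. It was so, again lower in TPN, for 2 of 9 stellate cell, fibroblast and smooth muscle rows and 1 of 10 hepatocyte rows. Of immune, biliary and endothelial rows it was so for 1 of 9, 1 of 7 and 0 of 2, beside 11.2% of all rows. The red cell markers (4 rows) summed to 31.3 to 261 CPM in TPN rats (median 34.8) and 133 to 802 CPM in Control rats (median 316). The stellate cell, fibroblast and smooth muscle markers had a median sum of 16711 CPM in TPN rats and 23869 CPM in Control rats. In bulk liver, fewer cells of a type and less RNA per cell cannot be told apart.

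Among the members miR-29a-3p was by far the most abundant, and it held 94.0% to 96.4% of the family's reads in TPN rats and 88.6% to 96.0% in Control rats. Over all 11 rats it averaged 260 CPM ± 37.4 (SD), rank 54 of 533 rat-named rows. Next came miR-29b-3p with 5.77 CPM ± 3.29 and miR-29c-5p with 5.21 CPM ± 1.08. These neighbours did not differ beyond their spread, since each was the higher one in 5 rats and they were equal in 1. The mean of miR-29c-3p was 3.01 CPM ± 2.27, below miR-29b-3p in 9 of 11 rats and below miR-29c-5p in 10 of 11. The rare arms were miR-29a-5p at 0.960 CPM ± 0.816 and miR-29b-5p at 0.100 CPM ± 0.136. Each mature strand is 22 or 23 bases long and is counted by 1 read, so these levels need no correction for length.

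**Figure D1:**
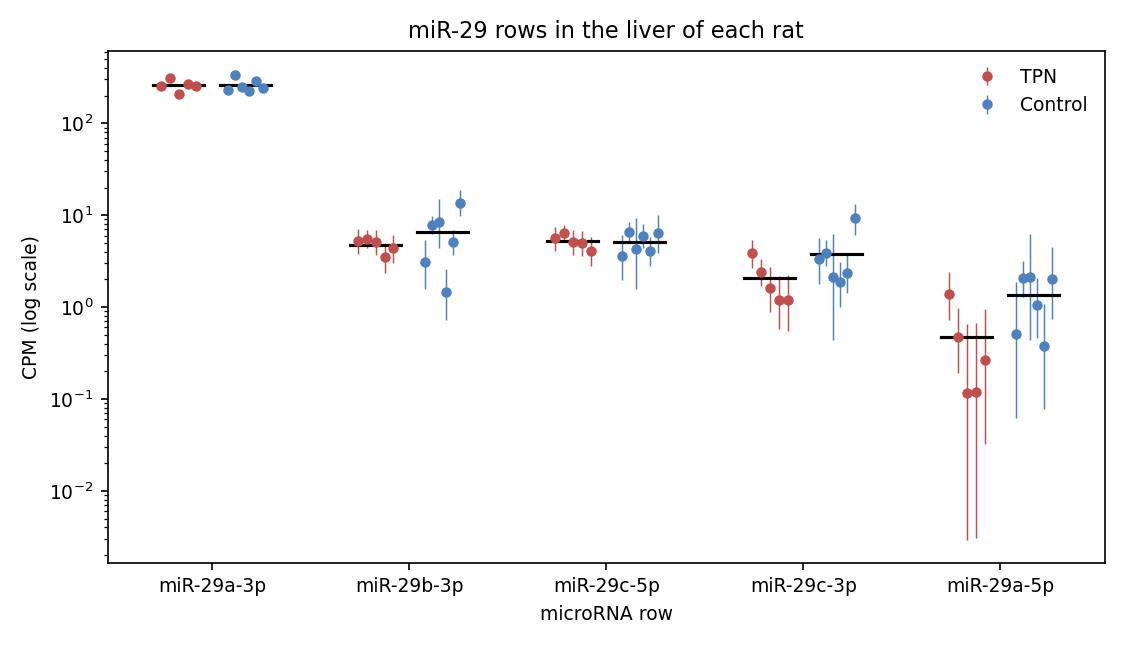
CPM on a log axis of 5 miR-29 rows in each rat, TPN left and Control right of each name. Points are rats with exact 95% intervals for counting error, and black lines are group means. miR-29b-5p is left out because 6 rats had 0 reads. The row miR-29a-3p sits between 210 and 333 CPM, while miR-29c-3p spreads up to 9.22 CPM in Control 19.

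Of the 6 members, 4 passed the filter of a mean of at least 1 CPM. None of these 4 had an adjusted p under 0.05 in either direction (limma-trend, Benjamini-Hochberg adjusted over 535 rows). Their intervals, given below, still allow a change. No row of the table passed either (0% higher and 0% lower at an adjusted p under 0.05), with edgeR and limma-voom also calling 0 and DESeq2 calling 5 higher and 108 lower, none of them a miR-29 row. Before adjustment, p was under 0.05 for 1 higher row (0.187%) and 60 lower rows (11.2%), and no member was among them. Fold changes below are on the log2(CPM + 1) scale. On that scale the median stood at -0.26 over the 280 tested rat-named rows and at -0.56 over all 535 tested rows. The 255 predicted rows among the 535 had a median of -1.15. Some of them had a mean of 0 CPM in TPN and passed the filter through Control rats alone, so the median of all rows is a poor baseline.

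The dominant strand, rno-miR-29a-3p, was at almost the same level in both groups. It had 252, 312, 210, 266 and 253 CPM in TPN 6, 8, 11, 15 and 16, against 233, 333, 248, 223, 291 and 245 CPM in Control 5, 7, 12, 16, 18 and 19. The groups overlapped throughout, with Control 7 highest and TPN 11 lowest. The mean over the 5 TPN rats was 259 ± 36.4 CPM (SD), against 262 ± 41.7 CPM (SD) over the 6 Control rats. The log2 fold change was -0.016 ± 0.18 (SE), with a limma-trend adjusted p of 0.982. Its 95% interval ran from -0.41 to 0.37, or from 0.754 to 1.30 as a ratio. Between 348 and 4609 reads stood behind each value.

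The near-zero change of miR-29a-3p belongs to the deposited scale. With TMM, RLE and upper-quartile scaling the value was 0.46, 0.32 and 0.64, while the median rat-named row moved to 0.16, 0.037 and 0.31. The distance of miR-29a-3p above that rat-named median was 0.25 as deposited and 0.28 to 0.33 under these scalings. The unadjusted 95% intervals with TMM (0.016 to 0.91) and upper-quartile scaling (0.082 to 1.19) lay above 0, but limma-trend gave no adjusted p under 0.05 with these scalings (0.343 to 0.405). Without Control 5, 12 and 19 the log2 fold change was -0.12 and the distance 0.16.

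**Figure D2:**
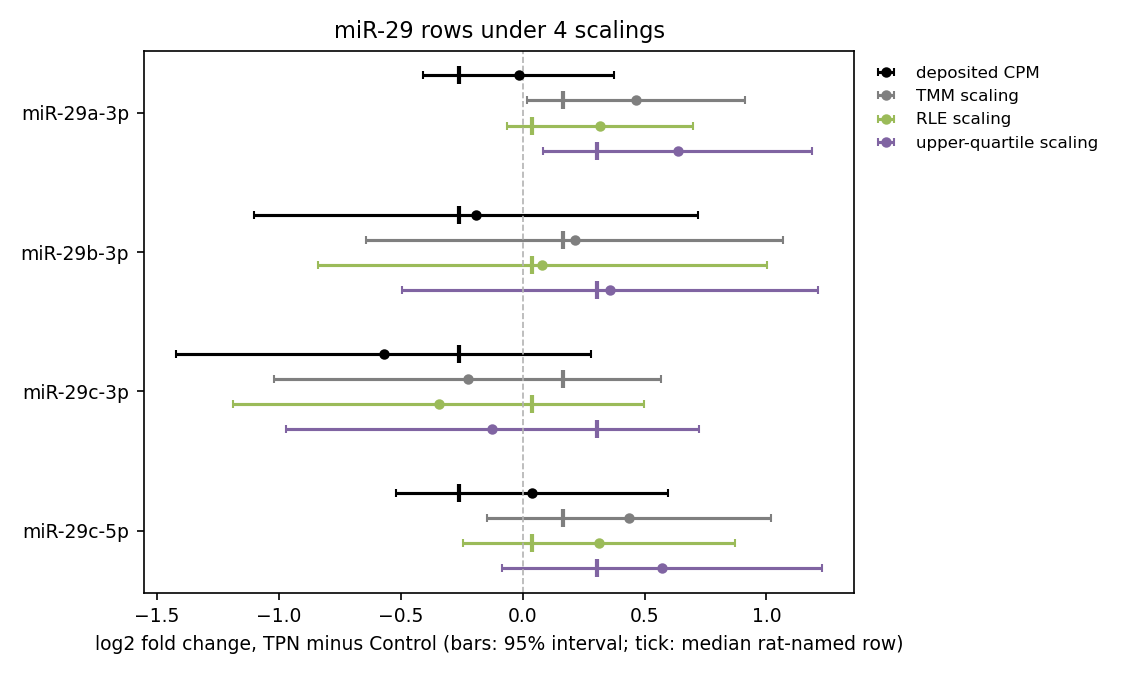
Log2 fold change (TPN minus Control) of the 4 miR-29 rows that were tested, for deposited CPM and after TMM, RLE and upper-quartile scaling. Points carry 95% intervals from limma-trend, and the vertical tick marks the median rat-named row under the same scaling. Points and ticks move to the right together, so miR-29a-3p stays 0.25 to 0.33 above the tick and miR-29c-3p stays below it.

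Between rats, miR-29a-3p varied little on the deposited scale. The highest rat had 1.58 times the CPM of the lowest. Its SD of log2(CPM + 1) over the 11 rats was 0.20, the lowest of the 80 rat-named rows averaging 100 CPM or more, ahead of let-7c-5p with 0.24. The median of those rows was 0.53, and miR-451-5p had the highest at 1.68. This rank depended on the scale, being 1 as deposited, 15 with RLE, 24 with TMM and 29 with upper-quartile scaling. Within each group of rats the rank was 8 of 80 in TPN and 2 of 80 in Control, and without Control 5, 12 and 19 it was 3 of 80. These ranks are descriptions and were not tested.

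**Figure D3:**
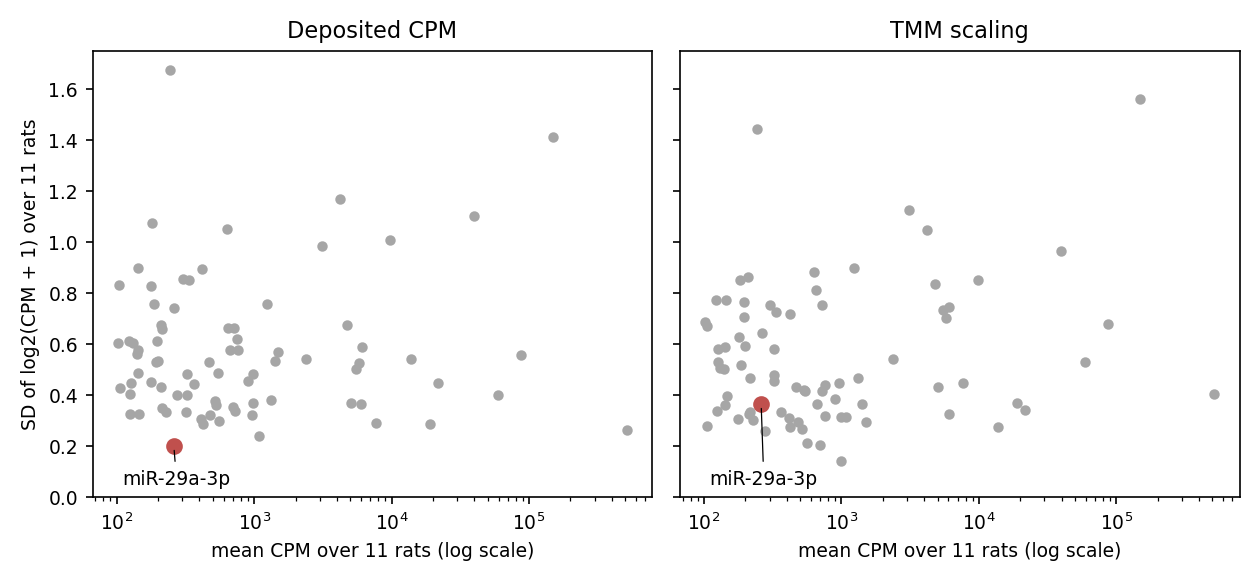
SD of log2(CPM + 1) over 11 rats against mean CPM (log axis) for the 80 rat-named rows averaging 100 CPM or more, with miR-29a-3p in red. It lies at the bottom of the cloud for deposited CPM (left, 0.20) and inside it after TMM scaling (right, 0.37).

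The strand with the nuclear signal, rno-miR-29b-3p, ranged more widely in Control than in TPN, a difference in spread that was not tested. It had 5.24, 5.54, 5.13, 3.47 and 4.37 CPM in TPN 6, 8, 11, 15 and 16, against 3.08, 7.85, 8.54, 1.46, 5.12 and 13.7 CPM in Control 5, 7, 12, 16, 18 and 19. Every TPN rat lay inside the Control range, whose ends were Control 16 and Control 19. The mean over the 5 TPN rats was 4.75 ± 0.835 CPM (SD), against 6.62 ± 4.38 CPM (SD) over the 6 Control rats. The log2 fold change was -0.19 ± 0.42 (SE; limma-trend adjusted p = 0.822), with a 95% interval of -1.10 to 0.72. It was 0.16 without Control 5, 12 and 19, and 0.21, 0.0797 and 0.36 with TMM, RLE and upper-quartile scaling, where the median rat-named row had shifted alike. The values rest on 11 to 82 reads a rat. The 12 reads of Control 12 allow 4.41 to 14.9 CPM (exact Clopper-Pearson 95% interval, counting error only).

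The least abundant of the 3p arms, rno-miR-29c-3p, had the lowest fold change of the 4 tested rows. It had 3.84, 2.43, 1.63, 1.20 and 1.19 CPM in TPN 6, 8, 11, 15 and 16, against 3.34, 3.93, 2.14, 1.85, 2.37 and 9.22 CPM in Control 5, 7, 12, 16, 18 and 19. TPN 11, 15 and 16 lay below every Control rat, while TPN 6 and TPN 8 lay inside the Control range. Control 19 was far above all others. The mean over the 5 TPN rats was 2.06 ± 1.12 CPM (SD), against 3.81 ± 2.76 CPM (SD) over the 6 Control rats. The log2 fold change was -0.57 ± 0.39 (SE; limma-trend adjusted p = 0.349), with a 95% interval of -1.42 to 0.28. It was -0.32 without Control 19 and -0.31 without Control 5, 12 and 19. As deposited it lay 0.31 below the median rat-named row, and without Control 5, 12 and 19 it lay only 0.031 below the median rat-named row. It also lay next to the median of all 535 rows (-0.56), which the predicted rows lowered. With TMM, RLE and upper-quartile scaling it was -0.23, -0.34 and -0.12, from 0.38 to 0.43 below the median rat-named row. Only 3 to 40 reads a rat stood behind these values, and the 3 reads of Control 12 allow 0.440 to 6.24 CPM.

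The partner strand of the same hairpin, miR-29c-5p, was close to even between the groups. It had 5.59, 6.42, 5.13, 5.03 and 4.10 CPM in TPN 6, 8, 11, 15 and 16. In Control rats it ran from 3.6 CPM (Control 5) over a median of 5.12 CPM to 6.58 CPM (Control 7). All TPN values lay inside the Control range. The mean over the 5 TPN rats was 5.26 ± 0.846 CPM (SD), against 5.17 ± 1.32 CPM (SD) over the 6 Control rats, and the log2 fold change was 0.038 ± 0.26 (SE; limma-trend adjusted p = 0.962) with a 95% interval of -0.52 to 0.60. With TMM, RLE and upper-quartile scaling it was 0.44, 0.31 and 0.57, and without Control 5, 12 and 19 it was -0.058. Control 19, the rat with the highest miR-29c-3p, had 6.48 CPM, within the range of the other Control rats.

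Of miR-29a, miR-29b and miR-29c, only miR-29c had more reads in its 5p row than in its 3p row. That pattern was noticed in these values and is described without a test. As the split of reads between miR-29a-3p and miR-29c-3p is uncertain, the share of the miR-29c arms is uncertain too. Of the reads of both miR-29c arms, the 5p arm held 59.3%, 72.5%, 75.9%, 80.8% and 77.5% in TPN 6, 8, 11, 15 and 16, against 51.9%, 62.6%, 66.7%, 76.3%, 63.5% and 41.3% in Control 5, 7, 12, 16, 18 and 19. The mean share over the 5 TPN rats was 73.2% ± 8.33 (SD), against 60.4% ± 12.2 (SD) over the 6 Control rats, and the ranges overlapped. The 5p arm was the more frequent in 10 of 11 rats. The exact Clopper-Pearson 95% interval of the share lay wholly above 50% in 4 TPN rats and 2 Control rats, and wholly below 50% in none.

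For miR-29a and miR-29b the 3p row held most of the reads. The 5p arm of miR-29a held 0.0451% to 0.551% of the reads of both arms in TPN and 0.129% to 0.855% in Control. For miR-29b, whose 3p row joins 2 hairpins, it held 0% to 3.53% in TPN and 0% to 15.4% in Control. No member row holds the 5p arm of Mir29b1, so this value is the arm share of neither miR-29b hairpin. Among 151 microRNAs with both arms listed and a joint mean of at least 1 CPM, 76 had the higher mean on the 5p arm. A share of the 5p arm between 25% and 75% of the joint mean was found for 26 of the 151, and miR-29c was one of them with 63.4%.

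**Figure D4:**
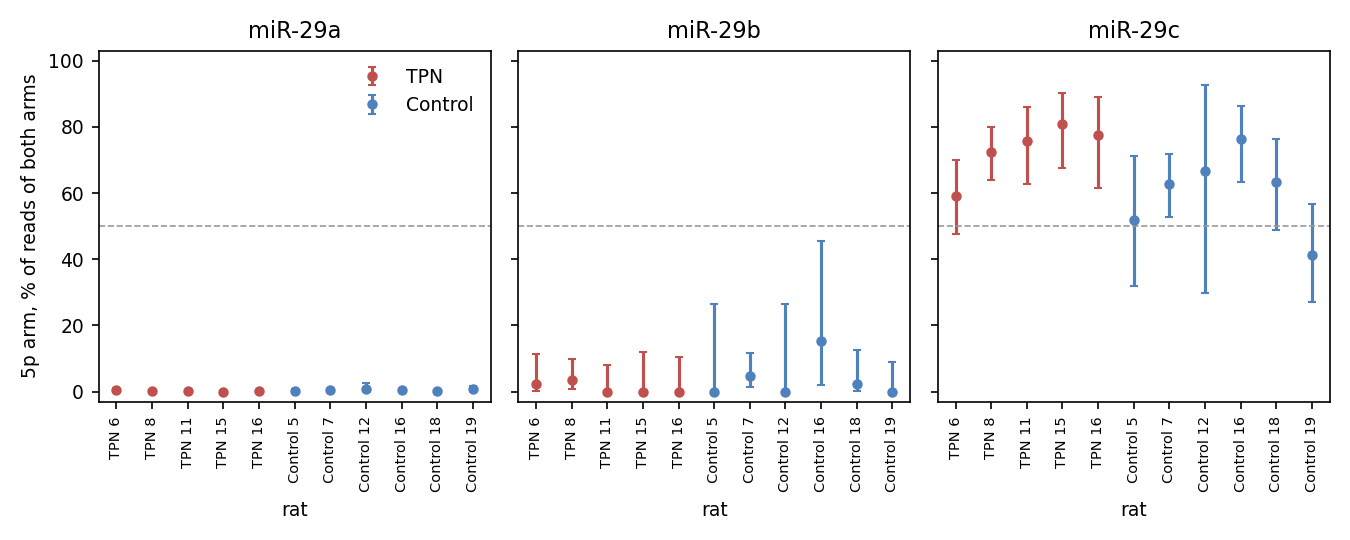
Share of the 5p arm in the reads of both arms, in percent, for miR-29a, miR-29b and miR-29c in each rat, with exact 95% intervals for counting error; the dashed line is 50%. Points of miR-29a and miR-29b lie at 15.4% or lower, and those of miR-29c lie between 41.3% and 80.8%.

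The rare arms, under the filter, are given by their reads. miR-29a-5p had 12, 7, 1, 1 and 2 reads in TPN 6, 8, 11, 15 and 16, which is 1.40, 0.473, 0.117, 0.120 and 0.265 CPM. It had 2, 21, 3, 8, 3 and 6 reads in Control 5, 7, 12, 16, 18 and 19, which is 0.514, 2.06, 2.14, 1.06, 0.375 and 2.05 CPM. TPN 11, 15 and 16 lay below every Control rat, and TPN 6 above 3 of 6. Pooled over rats it had 0.481 CPM in TPN (23 of 47855289 reads) and 1.27 CPM in Control (43 of 33976854 reads), a ratio of 0.380 (exact 95% interval 0.218 to 0.644 for counting error only). TPN 6 gave 12 of the 23 TPN reads, and without it, a check chosen after seeing the data, the ratio was 0.221 (0.103 to 0.437), with 0.280 CPM in TPN. Control 7 gave 21 of the 43 Control reads, and without it the ratio was 0.520 (0.277 to 0.978), with 0.925 CPM in Control. Leaving out each rat in turn, the ratio ran from 0.221 to 0.520. With no filter, limma-trend gave it a log2 fold change of -0.67 ± 0.39 (SE) and an adjusted p of 0.455. miR-29b-5p had 4 reads in the 5 TPN rats and 7 in the 6 Control rats, with 0 reads in 3 rats of each group. The limit set by 3 reads, used for a count of 0, was 0.397 CPM in TPN 16 and 2.14 CPM in Control 12, so its level was not measurable at this depth in those rats.

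The balance of the family within a rat does not depend on how libraries are scaled, and 3 ratios were tested between the groups. None passed a 2-sided exact permutation test over all 462 regroupings after adjustment over the 3 ratios. Per 100 reads of miR-29a-3p there were 0.801 ± 0.434 reads (SD) of miR-29c-3p over the 5 TPN rats, against 1.48 ± 1.14 (SD) over the 6 Control rats. The log2 ratio, TPN minus Control, differed by -0.79 (exact p = 0.139, adjusted p = 0.208), and 4 of 5 TPN rats lay below every Control rat. The fifth, TPN 6, had 1.52 per 100, above every Control rat but Control 19. The gap was small for TPN 8 and TPN 11, with 0.781 and 0.777 per 100 against 0.816 in Control 18, the lowest Control rat. These 3 values rest on 36, 14 and 19 reads of miR-29c-3p. Without TPN 6 the difference was -1.05 and passed (exact permutation, adjusted p = 0.0429), without Control 19 it was -0.47 (adjusted p = 0.321), and without Control 5, 12 and 19 it was -0.36 (adjusted p = 0.518).

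The ratio of the 5p arm to the 3p arm of miR-29a was lower in TPN and, alone of the 3 ratios, had an exact permutation p under 0.05 before adjustment. There were 0.182 ± 0.212 reads (SD) of miR-29a-5p per 100 of miR-29a-3p over the 5 TPN rats, against 0.524 ± 0.307 (SD) over the 6 Control rats. The difference in log2 ratio was -1.86 (exact permutation p = 0.0476, adjusted p = 0.143), with 3 of 5 TPN rats below every Control rat. Without TPN 6 it was -2.43 and passed (exact permutation, adjusted p = 0.0429); without Control 5, 12 and 19 it was -1.52 (adjusted p = 0.518). On CPM + 1, which damps ratios of rare rows, it was -0.65 (exact permutation, adjusted p = 0.234). For miR-29b-3p there were 1.87 ± 0.423 reads (SD) per 100 of miR-29a-3p over the 5 TPN rats, against 2.52 ± 1.77 (SD) over the 6 Control rats, a log2 difference of -0.15 (exact permutation p = 0.794, adjusted p = 0.794).

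None of the 3 pairs of 3p strands had a correlation from rat to rat that passed after adjustment. Over the 11 rats, log2(CPM + 1) of miR-29b-3p and miR-29c-3p had a Pearson r of 0.633 (permutation p = 0.0419, adjusted p = 0.126 over 3 pairs) and a Spearman rho of 0.564 (permutation p = 0.0772, adjusted p = 0.232). Without Control 16 and Control 19, the rats farthest from the median of miR-29b-3p, r was 0.297. It was 0.52 without Control 5, 12 and 19, and 0.644 with group means removed. For miR-29a-3p with miR-29b-3p, r was 0.323 (permutation p = 0.336, adjusted p = 0.504), rho was 0.273 (permutation p = 0.418, adjusted p = 0.614), and r was 0.219 without Control 7 and TPN 8 but 0.615 without Control 5, 12 and 19. For miR-29a-3p with miR-29c-3p, which differ in a single base, r was 0.135 (permutation p = 0.695, adjusted p = 0.695), rho was 0.173 (permutation p = 0.614, adjusted p = 0.614), and r was 0.0064 without Control 7 and TPN 8 but 0.502 without Control 5, 12 and 19. In the 8 rats left without Control 5, 12 and 19, each of the 3 pairs had an adjusted permutation p of 0.206.

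Each 3p strand had its own nearest rows among the 167 other rat-named rows averaging 10 CPM or more. Likeness was the Pearson r of log2(CPM + 1) over the 11 rats with group means removed; these values describe libraries that share their scale, and were not tested. For miR-29c-3p the nearest were miR-101a-3p (0.95), miR-101b-3p (0.946), miR-28-3p (0.937), miR-425-5p (0.932) and miR-19a-3p (0.923), where the median over the 167 rows was 0.035. Without Control 19 these values lay between 0.835 and 0.936. With TMM scaling they lay between 0.917 and 0.943.

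The values of miR-101a-3p, the nearest of them, are given for every rat. It had 8284, 4217, 1345, 1506 and 1722 CPM in TPN 6, 8, 11, 15 and 16, against 4563, 4902, 2484, 1306, 1625 and 14513 CPM in Control 5, 7, 12, 16, 18 and 19. Control 19 and TPN 6 were the highest of their groups in miR-101a-3p and in miR-29c-3p alike. Control 19 and TPN 6 also had the highest summed level of their groups for the stellate cell, fibroblast and smooth muscle markers (11 rows of 6 microRNAs, none at 0 in all rats). That sum was 28242 CPM in TPN 6 within a TPN range that began at 12788 CPM, and 37959 CPM in Control 19 within a Control range that began at 18741 CPM. The endothelial markers (2 rows) were lowest there, at 3162 CPM in TPN 6 against up to 6568 CPM in TPN, and 2019 CPM in Control 19 against up to 6849 CPM in Control. Both sums were mostly 1 row. Over the 11 rats miR-143-3p averaged 21626 CPM, and miR-145-5p, the next in its list, averaged 335 CPM. Of the endothelial rows miR-126a-3p averaged 4766.5 CPM and miR-126a-5p 303 CPM. In TPN 6 the red cell markers were also at the TPN maximum (261 CPM), and the hepatocyte (719836 CPM) and biliary markers (584 CPM) at the TPN minimum. In Control 19 these sums were 576, 629948 and 560 CPM, inside the range of the other Control rats. The part of these markers in the level of miR-29c-3p was not tested.

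**Figure D5:**
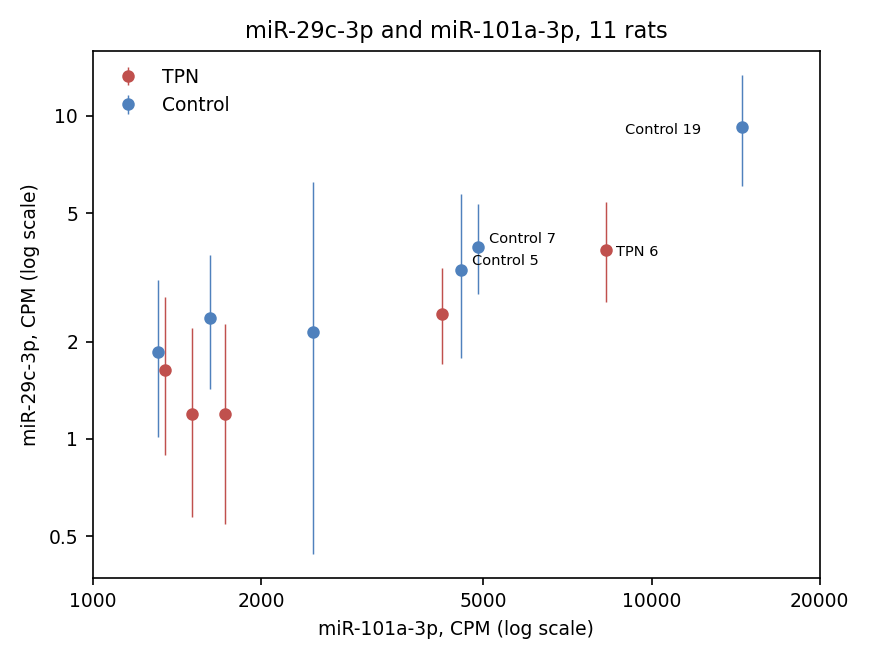
CPM of miR-29c-3p against CPM of miR-101a-3p in the 11 rats, both on log axes, with exact 95% intervals for counting error on miR-29c-3p. The 5 rats with the most miR-101a-3p hold the higher values of miR-29c-3p, with TPN 6 highest in TPN and Control 19 highest in Control.

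For miR-29b-3p the nearest rows were miR-146a-5p (0.751), miR-342-3p (0.748), miR-142-3p (0.722), miR-106b-5p (0.676) and miR-34a-5p (0.659). Without Control 16 and Control 19 the values lay between 0.251 and 0.615. For miR-29a-3p they were miR-155-5p (0.798), miR-1839-5p (0.613), miR-30c-5p (0.598), miR-351-5p (0.594) and miR-322-3p (0.573). Without Control 7 and TPN 8 the value of miR-155-5p was 0.412, and with TMM scaling it was 0.609 and only the 19th highest of 167. Without Control 7 and TPN 8 all 5 values lay between 0.224 and 0.49, and without Control 5, 12 and 19 between 0.643 and 0.867. For comparison, miR-101a-3p kept 0.944 without Control 19 and TPN 16, the rats farthest from the median of miR-29c-3p.

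Other microRNAs with published links to liver fibrosis gave no call either. The list held 30 microRNAs written from general knowledge, with 58 rows in the table and 48 tested. It was chosen with earlier results of these data known, so it is no independent check. After adjustment 0 rows passed as higher and 0 as lower (limma-trend, adjusted over 535 rows). Before adjustment, limma-trend p was under 0.05 for 0 higher and 8 lower rows of the 48. Among all 535 rows it was so for 1 higher row (0.187%) and 60 lower rows (11.2%). With the rat-named rows fitted alone, it was so for 1 higher and 33 lower rows of 280. The median log2 fold change of the list was -0.35, against -0.26 for the rat-named rows and -0.56 for all 535 rows, which the predicted rows lowered. With TMM, RLE and upper-quartile scaling it was 0.11, -0.037 and 0.28, against 0.16, 0.037 and 0.31 for the rat-named rows.

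The members of that list with the smallest p were miR-15b-5p, miR-455-5p and miR-194-5p. miR-15b-5p, which restrains cell cycle genes, had a mean of 13.8 ± 6.17 CPM (SD) over the 5 TPN rats, against 28.9 ± 13.8 CPM (SD) over the 6 Control rats. Its log2 fold change was -0.997 ± 0.32 (SE; limma-trend adjusted p = 0.296), and -0.54, -0.68 and -0.38 with TMM, RLE and upper-quartile scaling. miR-455-5p had -0.63 ± 0.22 (SE) and the hepatocyte microRNA miR-194-5p -0.51 ± 0.20 (SE), each with the same adjusted p. With TMM, RLE and upper-quartile scaling miR-455-5p was at -0.15, -0.29 and 0.024, and miR-194-5p at -0.029, -0.18 and 0.14. The most abundant were the hepatocyte microRNA miR-122-5p (-0.031 ± 0.78 SE), the injury-associated miR-21-5p (0.057 ± 0.34 SE) and miR-143-3p of smooth muscle and fibroblasts (-0.43 ± 0.26 SE), with adjusted p of 0.990, 0.962 and 0.316 by limma-trend. With upper-quartile scaling these 3 were 0.62, 0.71 and 0.22. They were 0.45, 0.54 and 0.050 with TMM, and 0.30, 0.39 and -0.098 with RLE scaling.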

How the data were processed

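RNA of 11 rat livers was taken up in TRIzol and read on an Illumina instrument, per the labels' protocols. CPM values were deposited by the authors as 1 table, where each rat has a column and each microRNA a row, and no column was left unused. The submitters' processing notes name DESeq2, with no version or role. The sources used here do not give the aligner, the counting, the microRNA database, the build or the filters. Reads were recovered by dividing each column by its smallest non-zero value, and 100% of non-zero values came out whole within 0.001.

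Rows averaging 1 CPM or more were fitted with limma-trend on log2(CPM + 1), without covariates (R 4.3.3, limma 3.58.1), and p-values were adjusted by Benjamini-Hochberg over all 535 rows. DESeq2 1.42.0, limma-voom and edgeR's quasi-likelihood test (4.0.16, TMM) were run on the recovered reads as alternatives, with other scalings, filters, pseudocounts and leaving out each rat. On the recovered reads edgeR called 0 rows, and DESeq2 called 5 higher and 108 lower. Ratios were compared by exact permutation, and correlations by 100000 resamples. The fits were tested on simulated data.

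The members and lists were chosen with earlier results of these data known. Named rows are all members, the 5 rows most like each 3p strand, and of the fibrosis list the 3 of lowest p and the 3 of highest mean, if averaging 10 CPM or more. A row outside the family with its 3p seed would also have been named. None was found among the 693 mature microRNAs searched, which cover 90.2% of the rat-named rows by name. The remaining rat-named rows and the predicted rows were not searched. Intervals and floors (3 reads) cover counting error only, as no molecular identifiers are stated. The labels name no batch and no shared litter; each sample is a separate rat. Sequences are from RefSeq tables of build GRCr8; the deposited table states no build. Figures were drawn with matplotlib 3.10.9.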

Additional observations from a re-analysis of the deposited data

Results flagged for a closer look

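Control 19 had 9.22 CPM of miR-29c-3p, far above the next Control rat at 3.93 CPM. The log2 ratio of miR-29c-3p to miR-29a-3p in Control 19, -4.73, also lay far from the nearest other Control rat at -6.13; it shares its numerator with the value before. TPN 6 had 1.40 CPM of miR-29a-5p, against 0.473 CPM in the next TPN rat, from 12 and 7 reads. Each stood out by Dixon's ratio of the gap to the range of its group, at the 95% level. There were 3 such values in 22 groups of values examined, where chance gives about 1 in 20.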

How the results depend on the processing

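No paired analysis was made, as the labels name no pairing of rats. The number 16 occurs in each group, but TPN 16 and Control 16 are separate rats. The counts of called rows, 0 higher and 0 lower, held under every alternative but DESeq2, with 5 higher and 108 lower; the cause was not tested. Leaving out each rat gave 0 and 0 throughout. The counts at an unadjusted p under 0.05 ran from 1 to 18 higher and from 6 to 183 lower over the alternatives. After adjustment no miR-29 row passed in any of them; before it, miR-29a-3p had a limma-trend p of 0.0433 with TMM and 0.0275 with upper-quartile scaling. The log2 fold change of miR-29c-3p stayed negative in all 22 alternatives (-0.75 to -0.12). That of miR-29a-3p turned positive with TMM (0.46), RLE (0.32) and upper-quartile scaling (0.64), edgeR (0.42), DESeq2 (0.29) and limma-voom (0.46), and ranged from -0.0865 to 0.0552 when each rat was left out. That of miR-29b-3p turned positive with TMM (0.21), RLE (0.0797) and upper-quartile scaling (0.36), edgeR (0.0568), limma-voom (0.40) and without Control 5, 12 and 19 (0.16), and ranged from -0.47 to 0.0428 when each rat was left out. That of miR-29c-5p was -0.0577 without Control 5, 12 and 19 and ranged from -0.0413 to 0.11 when each rat was left out. Leaving out each rat, the log2 ratio to miR-29a-3p differed between groups by -0.47 to 0.14 for miR-29b-3p, by -1.05 to -0.47 for miR-29c-3p and by -2.43 to -1.52 for miR-29a-5p. Without TPN 6 the differences of miR-29c-3p (-1.05) and miR-29a-5p (-2.43) passed the threshold. Without Control 5, 12 and 19 it was 0.39 for miR-29b-3p. The r of miR-29a-3p with miR-29c-3p was -0.158 with TMM scaling. The causes of these turns were not tested. The rare arms and miR-29c-3p rest on 0 to 40 reads a rat, which limits every statement on them.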
